A study of Mus musculus with 12 samples.

Results

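The cytosolic heat shock genes described here are Hsf1, the transcription factor of the heat shock response, and 9 chaperone genes: Hspa1a, Hspa1b, Hspa8, Hsp90aa1, Hsp90ab1, Hsph1, Dnaja1, Dnajb1 and Hspb1. They were taken by name, through their Ensembl identifiers, from a table of read counts over 53465 mouse genes, and all 10 were found. RNA had been sequenced from 12 libraries of mouse bone marrow hematopoietic stem cells (HSCs) that were sorted and then cultured for 2 days, with 3 samples in each of 4 groups. The groups were long-term HSCs with 1 mM nicotinamide riboside (NR), long-term HSCs without it (control), short-term HSCs with 1 mM NR and short-term HSCs without it. NR is a precursor of NAD+ related to vitamin B3; it was renewed after 24 h. Both cell types had been sorted as lineage-negative, c-Kit, Sca-1 and CD150 positive and CD48 negative; long-term cells (LT-HSCs) were CD34 negative and short-term cells (ST-HSCs) CD34 positive. All 4 groups grew in Stemline II medium with SCF at 100 ng/ml and Flt3 at 2 ng/ml, and libraries were amplified from 2.5 ng RNA with the SMART-seq v4 chemistry. The labels give no mouse strain, age or pooling and do not say that samples came from separate animals or cultures. The p-values therefore weigh a difference between groups only against the spread of these samples within a group, and that spread may be technical.

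HSP70 and HSP90 are ATP-driven chaperones that bind unfolded or immature proteins in the cytosol and nucleus. J-domain proteins (HSP40) deliver clients to HSP70 and start its ATP cycle, HSP110 releases its nucleotide, and HSP90 takes over late clients such as kinases and hormone receptors with the help of co-chaperones. HSF1 is held inactive by chaperones in unstressed cells; when unfolded proteins occupy them it forms a trimer and binds heat shock elements, inverted repeats of the bases GAA and TTC, in front of the chaperone genes. Adult hematopoietic stem cells are known for a low rate of protein synthesis and for sensitivity to misfolded protein, and HSF1 has been studied in them in culture.

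Libraries held 24.6 M to 35.5 M gene counts (median 31.7 M). Sample 3 of each NR group stood apart: reads in no annotated gene made up 28.5% in LT-HSCs and 26.2% in ST-HSCs, against 8.69% to 17.0% in the other 10 libraries, so results that rest on these 2 libraries are also given without them. The 7 HSC markers Procr, Mecom, Hlf, Fgd5, Hoxb5, Gata2 and Meis1 were all present at 1 or more CPM (counts scaled to library size) in every group, with summed levels of 1732 to 1802 CPM in NR-treated LT-HSCs, 1614 to 1723 CPM in control LT-HSCs, 1409.7 to 1515 CPM in NR-treated ST-HSCs and 1384 to 1447 CPM in control ST-HSCs. The 5 sort antigen genes (Kit, Ly6a, Slamf1, Cd34 and Cd48) summed to 1784 to 2095 CPM with NR and 1673 to 1798 CPM without in LT-HSCs. In ST-HSCs they summed to 2196 to 2402 CPM with NR and 1906 to 2012 CPM without, which did not overlap. Kit made up most of this sum, which mixes antigens sorted as positive and as negative. Slamf1 averaged 30.4 CPM with NR and 38.0 without in LT-HSCs, and 12.4 and 18.1 in ST-HSCs. Ly6a averaged 33.7 and 36.6 CPM in LT-HSCs, and 8.27 and 5.95 in ST-HSCs. Cd48 averaged 0.839 and 0.811 CPM in LT-HSCs, and 2.64 and 4.84 in ST-HSCs. Summed levels of some markers of other blood cells did not overlap between NR and control. The 6 megakaryocyte markers summed to 2015 to 2483 CPM in NR-treated LT-HSCs, against 2965 to 3276 CPM in control LT-HSCs. In ST-HSCs they summed to 1758 to 2216 CPM with NR, against 2829 to 3120 CPM in control. Pf4, Itga2b, Vwf, Gp1ba and Gp9 averaged lower with NR in both cell types, Gp9 by little in LT-HSCs (96.6 against 102.6 CPM). Ppbp averaged higher with NR, at 79.0 against 67.7 CPM in LT-HSCs and 69.1 against 55.4 CPM in ST-HSCs. The 6 monocyte-macrophage markers, of which 3 or 4 reached 1 CPM, summed to 23.0 to 27.5 CPM with NR and 12.8 to 16.2 CPM without in LT-HSCs, and to 35.0 to 60.8 CPM with NR and 12.6 to 13.6 CPM without in ST-HSCs. The 6 erythroid markers, of which 2 or 3 reached 1 CPM, summed to 29.5 to 33.8 CPM with NR and 41.2 to 51.0 CPM without in LT-HSCs, and to 21.9 to 29.8 CPM with NR and 40.1 to 48.9 CPM without in ST-HSCs. Of these, Epor averaged 25.9 CPM with NR and 39.8 CPM without in LT-HSCs, and 19.01 CPM with NR and 36.2 CPM without in ST-HSCs. Klf1 averaged 4.99 CPM with NR and 4.13 CPM without in LT-HSCs, and 6.93 CPM with NR and 7.70 CPM without in ST-HSCs. The globin gene Hba-a1 was near 0 in all groups. The part of these differences in the results below was not tested.

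The 10 genes covered a wide range of levels. Levels below are CPM of the library as scaled by edgeR's TMM method (scaled CPM), and only here, where genes are set against each other, per kilobase of exon. Hsp90ab1, the constitutive HSP90 beta, led with 573 ± 54.2 scaled CPM per kb (mean ± SD over 12 libraries), followed by Hspa8, the constitutive HSC70, with 240.4 ± 17.1 and Hsp90aa1, the stress-inducible HSP90 alpha, with 126 ± 19.8. Dnajb1 stood at 39.9 ± 2.79 scaled CPM per kb. Hsph1 (16.9 ± 1.77), Dnaja1 (16.5 ± 0.777) and Hsf1 (16.1 ± 1.10) had overlapping ranges and were not separated by their spread at these lengths. Exon lengths here join all annotated exons: 7266 bases for Hsph1, 8629 for Dnaja1, 7099 for Hsf1 and 3204 for Dnajb1. Their longest coding transcripts have 3802, 5622, 2104 and 2996 bases, so the order of these genes depends on the length used. The stress-inducible Hspa1b (0.224 ± 0.154), the small heat shock protein gene Hspb1 (0.0817 ± 0.0827) and Hspa1a (0.0271 ± 0.0334) were low and also overlapped. The constitutive members had the most counted reads per length and the classical inducible HSP70 genes were close to 0. This order is of counted reads: 74.8% of stretches of 50 bases in Hspa8, but 4.49% in Hsp90ab1, also occur in other genes, and reads lost there would lower a level.

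With NR, the HSP90 genes and Hsph1 fell in both cell types. Adjusted p-values are from edgeR's quasi-likelihood test with Benjamini-Hochberg adjustment over the 19830 genes tested, a gene is called at an adjusted p under 0.05, and log2 changes are NR over control. In LT-HSCs 3 of the 8 members tested were lower and 0 higher, where 9.96% of all genes tested were called (2.38% higher and 7.58% lower; 24.1% lower among genes with a mean of at least 100 CPM). In ST-HSCs the same 3 were lower and 0 higher, where 16.9% of all genes were called (5.82% higher and 11.1% lower; 32% lower among those with at least 100 CPM), so 3 of 8 lies near the share of genes at such levels. In the NR effect averaged over both cell types, 5 of 8 were lower (these 3, Hspa8 and Hsf1) and 0 higher, against 24% of all genes called (7.88% higher and 16.1% lower). Well expressed genes were lower more often: of the 2887 genes with a mean of at least 100 CPM, among them all members tested except Hspa1b, 42.6% were lower in the averaged comparison. Over the averaged comparison DESeq2 called 4 lower and 2 higher (Hspa1b and Dnajb1). Without sample 3 of both NR groups the count was 1 lower in LT-HSCs, 1 lower and 1 higher in ST-HSCs, and 2 lower and 1 higher averaged. With 1 library left out it fell to 1 in LT-HSCs without NR sample 2 or 3 or any control of that type, to 1 in ST-HSCs without NR-treated LT-HSC sample 1 or 2 or any ST-HSC control and to 0 without NR-treated ST-HSC sample 3, and to 3 on average without NR-treated LT-HSC sample 1 or 2. Without NR-treated ST-HSC sample 3 the averaged calls of Hspa8 and Hsf1 were also lost, while Dnajb1 was called higher (edgeR adjusted p = 0.0376). The median averaged log2 change was -0.15 over the 8 members, 0.027 over all genes tested and -0.13 over those with at least 100 CPM. Fewer cells of a type and less RNA per cell cannot be told apart in these bulk libraries.

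**Figure D1:**
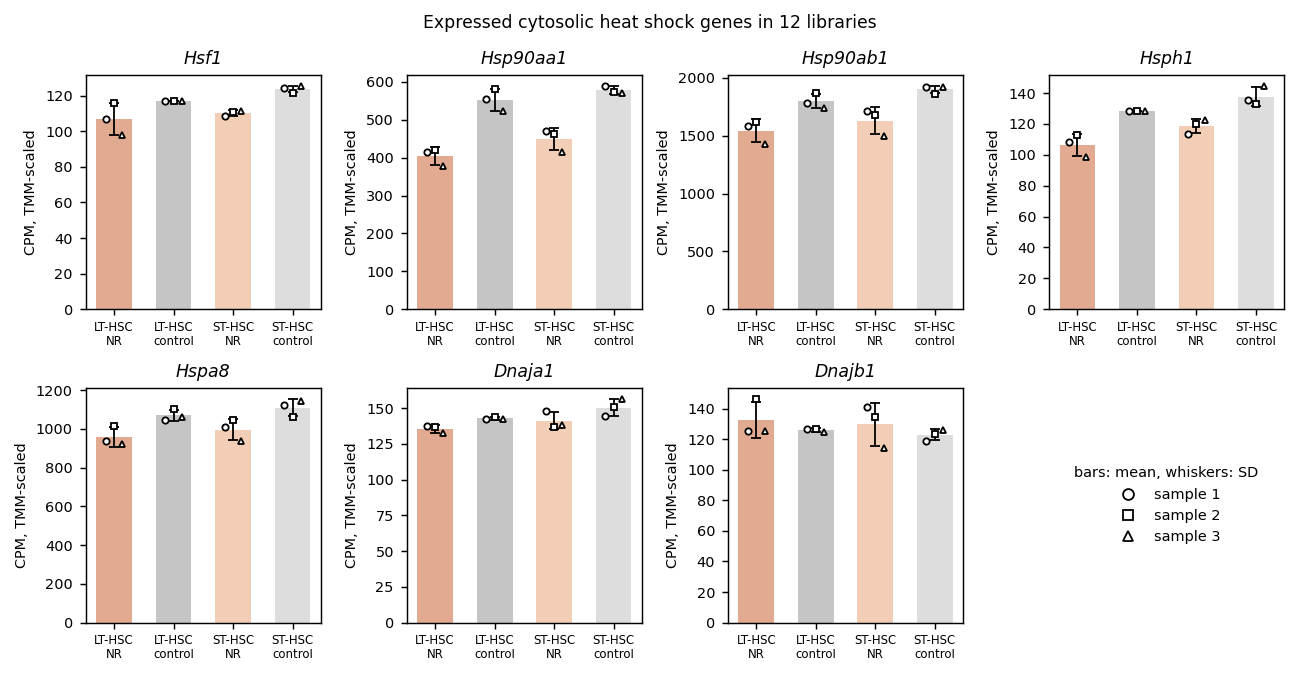
Level of the 7 expressed cytosolic heat shock genes in each library, in TMM-scaled CPM on a linear axis from 0; bars are group means, whiskers the SD (n = 3) and symbols the samples. For Hsf1, Hsp90aa1, Hsp90ab1, Hsph1 and Hspa8 every NR library lies below every control library of the same cell type, while for Dnajb1 the groups overlap. In CPM without the TMM factors, NR and control libraries of Hsf1, Hsph1 and Hspa8 overlap in ST-HSCs, and those of Hsf1 also in LT-HSCs. TMM factors were 0.998 to 1.10 in the NR libraries and 0.947 to 0.988 in the controls, which lowers scaled NR values. Among 64 other cytosolic chaperone genes, NR libraries lay below the controls in both cell types for 23 and above them for 2. The share of all genes with libraries apart was not counted.

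Hsp90aa1, which encodes the HSP90 isoform that stress induces, changed most among the members that were called. It had 416, 421 and 377 scaled CPM in NR-treated LT-HSCs, against 554, 582 and 523 in control LT-HSCs. In NR-treated ST-HSCs it had 470.4, 463 and 416, against 590.02, 574 and 571 in control ST-HSCs. All 6 NR libraries lay below all 6 control libraries. How often libraries lay apart like this over all genes was not counted, here or for the members below. The level fell by 26.9% in LT-HSCs (log2 change -0.45 ± 0.064 SE, adjusted p = 0.00103, edgeR) and fell by 22.2% in ST-HSCs (-0.36 ± 0.064, adjusted p = 0.00179). The averaged change was -0.41 ± 0.045 (adjusted p = 3.49e-05). Without sample 3 of both NR groups it was still called, at -0.38 in LT-HSCs (adjusted p = 0.00585), -0.23 in ST-HSCs (adjusted p = 0.0361) and -0.31 averaged (adjusted p = 0.000562). Leaving out NR-treated ST-HSC sample 3 alone gave -0.23 in ST-HSCs and an adjusted p of 0.0671.

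Hsp90ab1 encodes the constitutive HSP90, and it had the most counted reads per length of these genes. It had 1584, 1620 and 1429 scaled CPM in NR-treated LT-HSCs, against 1788, 1867 and 1743 in control LT-HSCs. NR-treated ST-HSCs held 1717, 1680 and 1500, against 1921, 1864 and 1918 in control ST-HSCs. The NR libraries again lay below the control libraries without overlap, with sample 3 lowest in both NR groups. Hsp90ab1 fell by 14.2% in LT-HSCs (-0.22 ± 0.061, adjusted p = 0.0362) and fell by 14.1% in ST-HSCs (-0.22 ± 0.061, adjusted p = 0.0244). The averaged change was -0.22 ± 0.043 (adjusted p = 0.00207). The calls within a cell type were less stable than for Hsp90aa1. In LT-HSCs the call was lost without any 1 library other than NR-treated ST-HSC sample 1 or 2 (adjusted p 0.055 to 0.181), and in ST-HSCs without NR-treated LT-HSC sample 1 or 2, NR-treated ST-HSC sample 3 or any ST-HSC control (adjusted p 0.0523 to 0.507). The averaged call held without each single library (adjusted p up to 0.043, -0.14 without NR-treated ST-HSC sample 3) but not without sample 3 of both NR groups (-0.12, adjusted p = 0.0578) or with no filter on low counts (-0.16, adjusted p = 0.21). With RLE scaling factors in place of TMM the calls were lost in LT-HSCs (-0.17, adjusted p = 0.0856) and ST-HSCs (-0.14, adjusted p = 0.11), and with no filter likewise (adjusted p = 0.581 and 0.754).

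**Figure D2:**
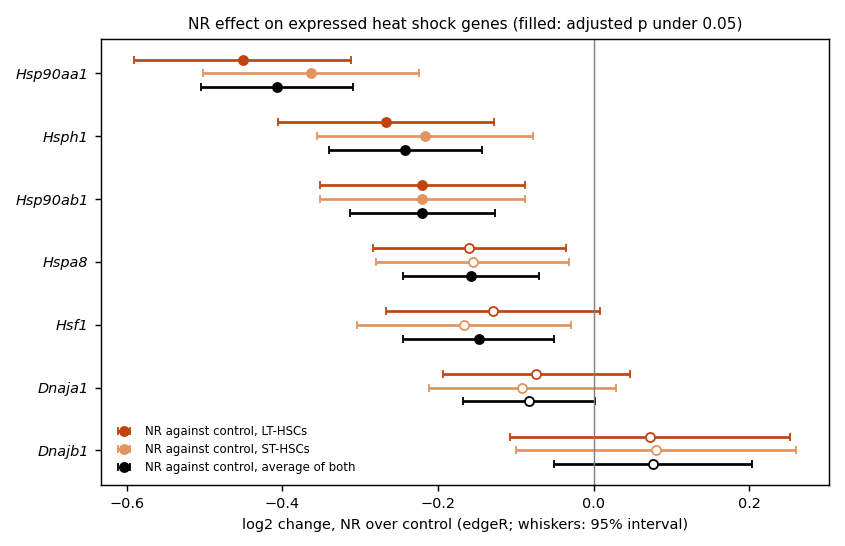
Log2 change with NR (NR over control) of the 7 expressed members in each cell type and as the mean of both, from edgeR; whiskers are 95% confidence intervals and filled points have an adjusted p under 0.05. Hsp90aa1, Hsph1 and Hsp90ab1 are called in all 3 comparisons, Hspa8 and Hsf1 in the average alone, and Dnaja1 and Dnajb1 in none.

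Hsph1 encodes the HSP110 protein that exchanges the nucleotide of HSP70. It had 108, 113 and 98.8 scaled CPM in NR-treated LT-HSCs, against 128, 128 and 128 in control LT-HSCs. It had 113, 120 and 122 in NR-treated ST-HSCs, against 136, 133 and 145 in control ST-HSCs. Here too all NR libraries were below all controls in scaled CPM. In CPM without the TMM factors, NR-treated ST-HSC sample 3 (130.4) was above ST-HSC control samples 1 (128.6) and 2 (127.4). Hsph1 fell by 16.9% in LT-HSCs (-0.27 ± 0.064, adjusted p = 0.0187), fell by 13.96% in ST-HSCs (-0.22 ± 0.064, adjusted p = 0.0341) and fell by 15.4% on average (-0.24 ± 0.045, adjusted p = 0.00159). The averaged call was kept without each library (adjusted p up to 0.00986) and without sample 3 of both NR groups (-0.18, adjusted p = 0.0134). The calls within a cell type were not: in LT-HSCs the adjusted p was 0.0514 to 0.0644 without NR sample 2 or 3 or any control of that cell type, and in ST-HSCs 0.0517 to 0.188 without any 1 library other than NR-treated LT-HSC sample 3 or control LT-HSC sample 1 or 2. The ST-HSC call was also lost with RLE factors (-0.14, adjusted p = 0.119), upper-quartile factors (-0.15, 0.0772), no filter (-0.14, 0.597) and a filter at 5 CPM (-0.14, 0.0573). The LT-HSC call was lost with no filter (-0.22, adjusted p = 0.177) and with sample number as a replicate block and the unassigned share (reads outside annotated genes) as covariate together (-0.23, 0.0532).

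Hspa8, the HSC70 that folds new proteins without stress, moved less. It had 939, 1016 and 920 scaled CPM in NR-treated LT-HSCs, against 1048, 1102 and 1062 in control LT-HSCs. It had 1010, 1045 and 935 in NR-treated ST-HSCs, against 1123, 1061 and 1147 in control ST-HSCs. NR and control libraries did not overlap in scaled CPM, but the gap was small, from 1045 to 1048. In CPM without the TMM factors, NR-treated ST-HSC samples 1 (1032) and 2 (1044) were above ST-HSC control sample 2 (1019). The log2 change was -0.16 ± 0.057 in LT-HSCs (adjusted p = 0.108) and -0.16 ± 0.057 in ST-HSCs (adjusted p = 0.0864), neither called, and -0.16 ± 0.040 averaged (adjusted p = 0.0117). That averaged call was lost without NR-treated LT-HSC sample 1 (adjusted p = 0.112) or 2 (0.0863) or NR-treated ST-HSC sample 3 (-0.090, adjusted p = 0.163), and without sample 3 of both NR groups (-0.075, adjusted p = 0.22). It was also lost with RLE factors (-0.094, adjusted p = 0.0742) and with no filter (-0.097, adjusted p = 0.559). The ST-HSC change became a call with the unassigned share as covariate (-0.15, adjusted p = 0.0402), also beside the replicate block (-0.15, 0.02).

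Hsf1 itself had 107, 116 and 97.9 scaled CPM in NR-treated LT-HSCs, against 117, 117 and 117 in control LT-HSCs. In ST-HSCs it had 108, 111 and 111 with NR, against 124, 122 and 125 without. The highest NR library, LT-HSC sample 2, lay just under the LT-HSC controls, and the groups did not overlap in scaled CPM. In CPM without the TMM factors that library (115.6) was above the LT-HSC controls (111.8 to 115.3). NR-treated ST-HSC sample 3 (118.7) was likewise above ST-HSC control samples 1 (117.7) and 2 (116.7). The change was -0.13 ± 0.064 in LT-HSCs (adjusted p = 0.271), -0.17 ± 0.064 in ST-HSCs (adjusted p = 0.0979) and -0.15 ± 0.045 averaged (adjusted p = 0.029). The averaged call depended on nearly every library: it was lost without any 1 of them other than ST-HSC sample 2 with NR or in control (adjusted p 0.053 to 0.188), and it was -0.076 without sample 3 of both NR groups (adjusted p = 0.287). The choice of method ended it too: RLE factors gave -0.084 (adjusted p = 0.152), upper-quartile factors -0.092 (0.0688), DESeq2 -0.084 (0.0592), no filter -0.087 (0.537), a filter at 5 CPM -0.076 (0.0901) and the replicate block with the unassigned share -0.13 (0.0538). These values are transcript levels; the activity of HSF1 depends on its trimer form and on modifications that RNA does not show.

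The J-domain proteins did not pass the test. Dnaja1, a class A partner of HSP70, had 138, 137 and 132 scaled CPM in NR-treated LT-HSCs, against 142, 144 and 142 in control LT-HSCs. It had 148, 137 and 138 in NR-treated ST-HSCs, against 144, 151 and 156 in control ST-HSCs, where the groups overlapped. Its averaged log2 change was -0.083 ± 0.039 (adjusted p = 0.166; 95% interval -0.17 to 0.0022). Dnajb1, a class B partner of HSP70 and a classical HSF1 target, was the only member with more than 100 CPM whose averaged change was above 0. It had 126, 146 and 126 in NR-treated LT-HSCs, against 127, 127 and 125 in control LT-HSCs. It had 141, 135 and 114 in NR-treated ST-HSCs, against 119, 124 and 126 in control ST-HSCs. NR libraries lay on both sides of the controls, and the averaged change was 0.076 ± 0.059 (adjusted p = 0.447; 95% interval -0.051 to 0.20). It turned into a call with all libraries kept under a filter at 5 CPM (0.15, adjusted p = 0.0143) and by DESeq2 (0.14, adjusted p = 0.0369), without NR-treated ST-HSC sample 3 (0.17, adjusted p = 0.0376) and without sample 3 of both NR groups (0.18, adjusted p = 0.0206).

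The inducible HSP70 genes and Hspb1 had few reads with and without NR. Hspa1b had 9, 30 and 21 reads in NR-treated LT-HSCs, against 7, 16 and 10 in control LT-HSCs, and 61, 29 and 18 reads in NR-treated ST-HSCs, against 4, 13 and 18 in control ST-HSCs. The LT-HSC groups overlapped, and the highest ST-HSC control equalled the lowest NR library in reads. The averaged log2 change was 1.19 ± 0.51 (adjusted p = 0.119; 95% interval 0.093 to 2.29), 0.90 ± 0.72 in LT-HSCs (adjusted p = 0.556) and 1.48 ± 0.72 in ST-HSCs (adjusted p = 0.211), none of them called. The averaged change was called by DESeq2 (1.27, adjusted p = 0.0462) and with the replicate block and the unassigned share together (1.47, adjusted p = 0.0345). In total Hspa1b had 168 reads in 6 NR libraries and 68 in 6 control libraries. It entered the test with 5 NR libraries and 4 control libraries at or above the cutoff of 0.316 CPM, of which 3 were needed.

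**Figure D3:**
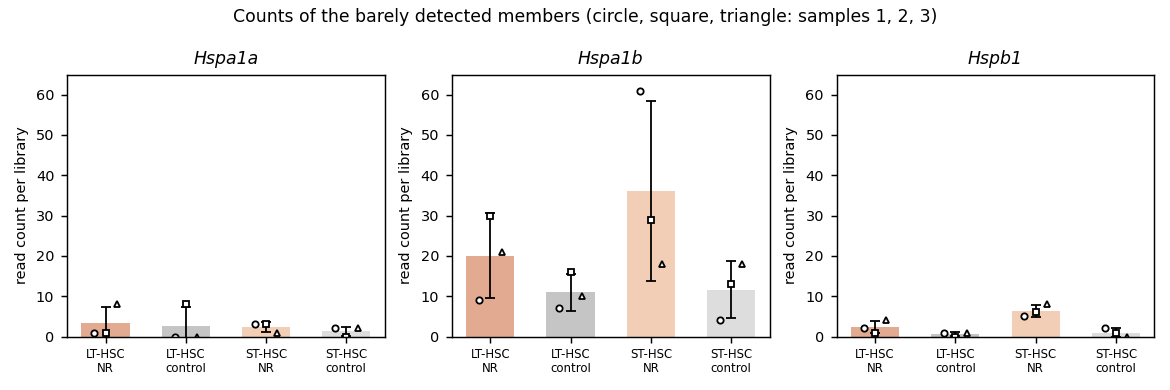
Read counts of Hspa1a, Hspa1b and Hspb1 in each library on a linear axis; bars are group means and whiskers the SD (n = 3). All counts are at or below 61 reads in libraries of 24.6 M to 35.5 M gene counts, and Hspa1b has its highest count in sample 1 of the NR-treated ST-HSCs.

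Hspa1a had 1, 1 and 8 reads in NR-treated LT-HSCs, against 0, 8 and 0 in control LT-HSCs, and 3, 3 and 1 in NR-treated ST-HSCs, against 2, 0 and 2 in control ST-HSCs. Hspb1, an ATP-independent small heat shock protein that holds unfolded chains, had 2, 1 and 4 reads in NR-treated LT-HSCs, against 1, 0 and 1 in control LT-HSCs. It had 5, 6 and 8 in NR-treated ST-HSCs, against 2, 1 and 0 in control ST-HSCs. Neither gene reached the filter: Hspa1a had 17 reads over the NR libraries and 12 over the controls, and Hspb1 26 and 5. A count of 3 corresponds to 0.0828 to 0.111 scaled CPM at these depths, and differences at this level were not resolved. Fitted without the filter, the averaged log2 change was 0.61 ± 1.19 for Hspa1a (adjusted p = 0.959) and 2.12 ± 1.17 for Hspb1 (adjusted p = 0.418).

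Several of these genes share sequence with copies, which limits how surely a read could be placed. The share of stretches of 50 bases in the longest coding transcript that occur in another annotated gene was 74.8% for Hspa8 (mostly Gm15459), 66.3% for Hspa1a and 62.3% for Hspa1b (mostly each other), 58.5% for Hsp90aa1 (mostly Gm12346), 51.6% for Hspb1 (mostly Hsp25-ps1) and 28.8% for Dnaja1. It was 4.49% for Hsp90ab1, 0.441% for Dnajb1 and 0 for Hsph1 and Hsf1. The split of reads between Hspa1a and Hspa1b is therefore uncertain. Gm15459 had 0 counts in all libraries. Gm12346, the copy most like Hsp90aa1, had 2.47 ± 0.340 scaled CPM in NR-treated LT-HSCs, 3.09 ± 0.207 in control LT-HSCs, 2.90 ± 0.452 in NR-treated ST-HSCs and 3.62 ± 0.239 in control ST-HSCs (SD, n = 3). Hspa1a also lies opposite Gm20481 (0 counts), and Dnaja1 overlaps Smu1 on the other strand.

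The gene positions (GENCODE M21, GRCm38) place Hspa1a at chr17:34969190-34972156 and Hspa1b at chr17:34956436-34959238, both on the minus strand of the same chromosome. Hsp90ab1 lies on that chromosome too, at chr17:45567775-45573271, minus strand, and Hsp90aa1 at chr12:110690605-110702728, minus strand. The RefSeq promoter table (GRCm38.p6) held 6 of the 10 members: Hspa1a, Hspa1b, Hsph1, Dnaja1, Dnajb1 and Hspb1. A script searched the 250 bases before each start for GAANNTTC and TTCNNGAA, the 2 forms of an inverted repeat of heat shock element units; each reads the same on both strands. At least 1 form was found in 5 of these 6 genes (all except Dnajb1), in 11 of 56 other cytosolic chaperone genes (19.6%) and in 14.5% of all 27025 genes with a window. Counted by window, since a gene can have several starts, it was 6 of 10 for the members and 12.8% of all 32851 windows. The longer runs GAANNTTCNNGAA and TTCNNGAANNTTC, with 3 units, were found in 0 of the members and in 0.466% of all windows. The matches are shown because HSF1 acts through such repeats, each as 60 bases on the gene's own strand with the repeat in capitals; a match is a description of these letters and not a measured site.
Hspa1a, chr17:34972227-34972286, minus strand: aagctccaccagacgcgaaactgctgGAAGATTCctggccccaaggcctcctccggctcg
Hspa1b, chr17:34959309-34959368, minus strand: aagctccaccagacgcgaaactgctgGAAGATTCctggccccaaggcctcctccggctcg
Hspb1, chr5:135887776-135887835, plus strand: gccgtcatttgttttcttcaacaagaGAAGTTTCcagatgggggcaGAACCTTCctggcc
Hsph1, chr5:149636336-149636395, minus strand: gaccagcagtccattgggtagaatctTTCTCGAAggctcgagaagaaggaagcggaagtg
Dnaja1, chr4:40722318-40722377, plus strand: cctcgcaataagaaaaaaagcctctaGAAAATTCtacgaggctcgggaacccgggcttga

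Hspa1a and Hspa1b carry the same 60 bases around the repeat, and over the 250 bases before their starts they are 98.8% identical, with 3 differences. Counted from 1 at the upstream end of the window, from Hspa1a to Hspa1b, these are C44T, T47C and T249G. The first 2 are shown in capitals because they are where the upstream sequences of these neighbouring genes part, although both genes had few reads.
Hspa1a, chr17:34972327-34972386, minus strand: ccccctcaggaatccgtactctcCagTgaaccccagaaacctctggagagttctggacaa
Hspa1b, chr17:34959409-34959468, minus strand: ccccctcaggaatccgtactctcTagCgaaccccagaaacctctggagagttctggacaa

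The results above stand beside these windows as follows, and no difference in response between the genes was tested. Hsph1, with a repeat that begins 54 or 33 bases before its 2 listed starts, was called lower in both cell types. Dnaja1, with a repeat that begins 124 bases before 1 of its 3 listed starts, was not called (-0.083 averaged), and Hspa1a, Hspa1b (104 bases before) and Hspb1 (117 and 97 bases before) had few reads.

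The members did not differ between LT-HSCs and ST-HSCs by this test. In control culture 0 of 8 were called (0 at an unadjusted p under 0.05 and 0 by DESeq2), where 5.01% of all genes were called (3.51% higher and 1.5% lower in LT-HSCs), and the log2 difference of the 7 expressed members, LT over ST, ran from -0.10 to 0.037. The nearest to a difference was Hsph1, with 128, 128 and 128 scaled CPM in control LT-HSCs, against 136, 133 and 145 in control ST-HSCs (-0.10 ± 0.064, adjusted p = 0.558; 95% interval -0.24 to 0.037). With NR 0 of 8 were called, against 6.07% of all genes (3.8% higher and 2.27% lower in LT-HSCs), although 2 had an unadjusted p under 0.05 and DESeq2 called the same 2. These were Hsp90aa1, with 416, 421 and 377 scaled CPM in LT-HSCs and 470.4, 463 and 416 in ST-HSCs (-0.15 ± 0.064, adjusted p = 0.234; adjusted p 0.0209 to 0.0433 with upper-quartile factors, DESeq2, a filter at 5 CPM and the unassigned share with or without the replicate block), and Hsph1 (-0.15 ± 0.064, adjusted p = 0.237). Hsph1 libraries did not overlap between the cell types with NR, and those of Hsp90aa1 did.

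The NR effect was not shown to differ between the cell types either. The test of the difference (ST-HSC effect minus LT-HSC effect) called 0 of 8 members, 0 at an unadjusted p under 0.05 and 0 by DESeq2, and 0.0101% of all genes. For Hsp90aa1 the difference was 0.089 ± 0.091 (95% interval -0.11 to 0.28), for Hsp90ab1 0.00046 ± 0.086 (-0.19 to 0.19) and for Hsph1 0.050 ± 0.091 (-0.15 to 0.25). The interval for Hspa1b, -1.61 to 2.76, allows a several-fold difference in either direction.

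Because the scaling of whole libraries moves all genes together, 3 ratios of counts between related members were taken within each library; the pairs were chosen after their members had been seen to move apart, so the ratios are descriptions and carry no test. The ratio of Hsp90aa1 to Hsp90ab1, the inducible over the constitutive HSP90, was 26.26%, 25.99% and 26.38% in NR-treated LT-HSCs, against 31.0%, 31.2% and 30.0% in control LT-HSCs. In NR-treated ST-HSCs it was 27.4%, 27.6% and 27.7%, against 30.7%, 30.8% and 29.8% in control ST-HSCs. All NR libraries were below all controls, and the samples 3 stood with their groups. The mean log2 difference, NR minus control, was -0.19, and -0.19 without sample 3 of both NR groups. Such a ratio says nothing of which gene moved.

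The ratio of Dnajb1 to Dnaja1 went the other way. It was 91.3%, 107% and 94.9% in NR-treated LT-HSCs, against 89.2%, 88.2% and 87.6% in control LT-HSCs. It was 95.3%, 98.3% and 82.4% in NR-treated ST-HSCs, against 82.4%, 82.1% and 80.7% in control ST-HSCs. NR sample 3 of the ST-HSCs lay level with the highest control. The mean log2 difference was 0.15, and 0.20 without sample 3 of both NR groups. The ratio of Hsph1 to Hspa8 averaged 11.1 ± 0.406% with NR and 11.99 ± 0.304% without in LT-HSCs, and 11.9 ± 1.00% with NR and 12.4 ± 0.279% without in ST-HSCs (SD, n = 3). Its mean log2 difference was -0.084, and -0.11 without sample 3 of both NR groups.

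**Figure D4:**
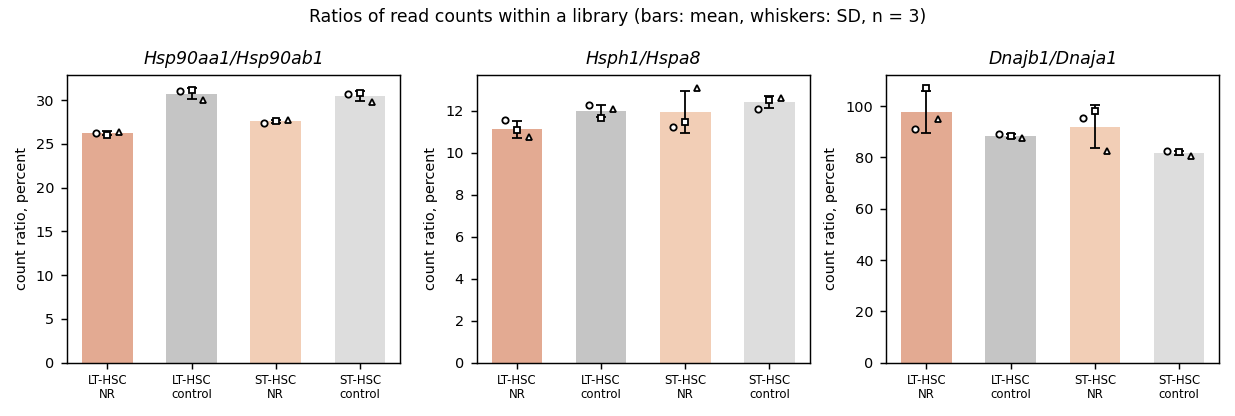
Ratio of read counts of 2 members within each library, in percent on a linear axis from 0; bars are means, whiskers the SD (n = 3), and circles, squares and triangles are samples 1, 2 and 3. The Hsp90aa1 to Hsp90ab1 ratio is lower in every NR library than in every control, from 25.99% to 27.7% against 29.8% to 31.2%.

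Around the members, 68 other cytosolic chaperone genes were followed, from HSF regulators to prefoldin, and 64 of them were tested. NR was followed by 18 calls lower and 0 higher in LT-HSCs (28.1% called, against 9.96% of all genes and 27.5% of those with at least 100 CPM). In ST-HSCs 19 were lower and 2 higher (32.8% called, against 16.9% of all genes and 39.3% of those with at least 100 CPM). In the averaged comparison 3 were higher, 26 lower and 35 not called (median -0.10). The test of a difference between cell types called 0 of them (1 at an unadjusted p under 0.05, 0 by DESeq2). Leaving out NR-treated ST-HSC sample 3 left 12 calls in ST-HSCs. Beside the 24% of all genes called on average, 29 of 64 is 45.3%, and the share among genes with at least 100 CPM was 51.4%.

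The cytosolic chaperonin TRiC, the ring that folds actin and tubulin, was lower throughout: all 8 subunit genes fell in LT-HSCs (median -0.38), in ST-HSCs (median -0.35) and on average (median -0.36). Of all genes tested 7.58%, 11.1% and 16.1% were lower in these comparisons, and of those with at least 100 CPM 24.1%, 32% and 42.6%. All 8 were also called lower on average under every alternative tried, while in LT-HSCs 5 were called without NR sample 1 or 2 or control sample 2 of that type, and in ST-HSCs 3 without NR-treated ST-HSC sample 3, 4 without NR-treated LT-HSC sample 2 and 5 without NR-treated LT-HSC sample 1. Tcp1 averaged 300.4 ± 24.8 scaled CPM in NR-treated LT-HSCs, against 432 ± 22.3 in control LT-HSCs, and 335 ± 25.9 in NR-treated ST-HSCs, against 458 ± 12.9 in control ST-HSCs (SD, n = 3; averaged log2 change -0.49 ± 0.051 SE, edgeR adjusted p = 2.22e-05). Cct6a fell by 0.46 on the log2 scale and Cct7 by 0.43. Prefoldin, which hands unfolded actin and tubulin to TRiC, had 4 of 6 genes lower on average, where 16.1% of all genes were lower. The count was 0 without sample 3 of both NR groups, 2 without NR-treated LT-HSC sample 1 or 2 and 1 without NR-treated ST-HSC sample 3. In either cell type alone edgeR and DESeq2 called 0 of the 6, and 4 were lower at an unadjusted p under 0.05.

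Of the co-chaperones of HSP90, 9 of 15 were lower on average and 1, Unc45a, higher (0.24 ± 0.060), where 16.1% of all genes and 42.6% of those with at least 100 CPM were lower. Ppid, a cyclophilin that binds the tail of HSP90, averaged 127 ± 6.46 scaled CPM in NR-treated LT-HSCs, against 184 ± 5.80 in control LT-HSCs, and 128 ± 5.21 in NR-treated ST-HSCs, against 199 ± 8.52 in control ST-HSCs (-0.58 ± 0.043). Fkbp4, an immunophilin of steroid receptor complexes, changed by -0.49 ± 0.052, and Nudc by -0.39 ± 0.050. The other 6 lower were Cdc37, which brings kinases to HSP90, Ptges3, Chordc1, Ppp5c, Ahsa1, which speeds its ATPase, and Stip1, which links HSP70 to HSP90. The count of lower genes was 5 under no filter, without sample 3 of both NR groups and without NR-treated ST-HSC sample 3 alone.

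Among the partners of HSP70, 2 of 9 co-chaperones were lower on average. In that comparison 16.1% of all genes tested were lower and 7.88% higher, shares that also stand beside the J-domain and HSP70 counts below. Bag2, a nucleotide exchange factor, averaged 34.9 ± 3.62 scaled CPM in NR-treated LT-HSCs, against 60.7 ± 2.09 in control LT-HSCs, and 39.6 ± 2.32 in NR-treated ST-HSCs, against 66.9 ± 1.32 in control ST-HSCs. Its averaged change, -0.78 ± 0.059, was the largest fall among the chaperone genes called. Hspbp1, another exchange factor, was at -0.34 ± 0.061. Of 9 other J-domain genes, Dnajc2, which works at the ribosome, was lower (-0.45 ± 0.050) and Dnajb4 higher (0.25 ± 0.079) on average. In either cell type alone 0 of these were called higher. Of 7 other HSP70 and HSP110 genes, Hspa4 (-0.29 ± 0.046) and Hspa12b (-0.50 ± 0.073) were lower and Hspa2 (0.36 ± 0.074) higher on average. Hspa12b was called under all 23 alternatives in ST-HSCs (-0.81 to -0.67) and under 0 in LT-HSCs (-0.32 to -0.18). In LT-HSCs 0 of the 7 were called higher. The test of a difference between the cell types called 0 of them. None of the 5 HSF family and regulator genes and none of the 5 small heat shock protein genes tested was called on average by edgeR or DESeq2. At an unadjusted p under 0.05 in edgeR, 1 gene of the HSF family and regulator list was lower and 0 of the small ones differed.

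**Figure D5:**
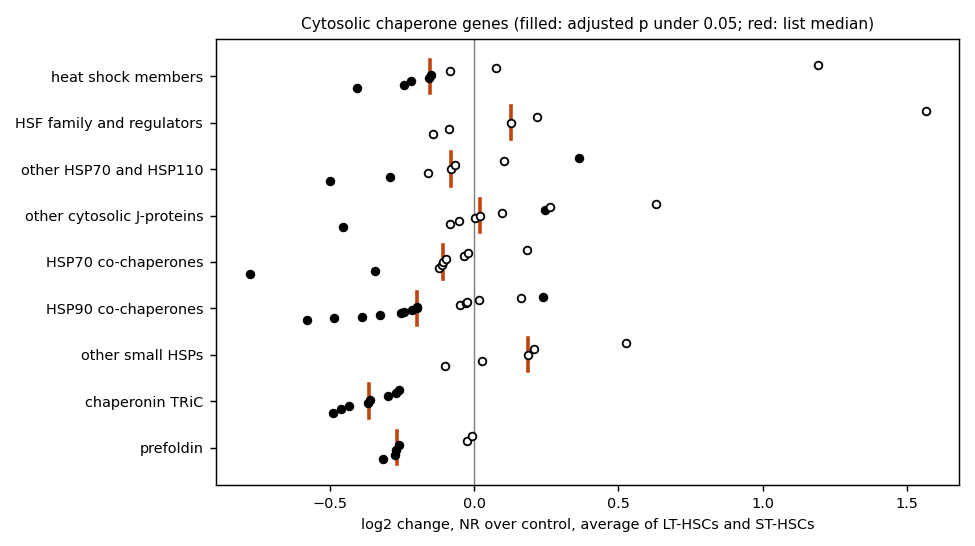
Averaged log2 change with NR (NR over control) of each tested cytosolic chaperone gene, by list; filled points have an adjusted p under 0.05 in edgeR and red bars are list medians. All 8 TRiC points lie left of 0, at a median of -0.36, the heat shock members have a median of -0.15, and the open point far right in the top list is Hspa1b.

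Between the cell types, 2 of the 64 other chaperone genes (3.12%) were called in control culture and 3 (4.69%) with NR by edgeR, all higher in LT-HSCs; both shares lie below the 5.01% and 6.07% of all genes. In control culture these were Hspa12b, an atypical HSP70 known from endothelium, with 40.8 ± 3.61 scaled CPM in LT-HSCs, against 28.1 ± 2.48 in ST-HSCs, and Hspb8, with 9.09 ± 0.894 against 5.76 ± 0.579. With NR they were Hspa12b, with 34.3 ± 2.55 scaled CPM in LT-HSCs, against 16.7 ± 1.43 in ST-HSCs, Hspb8 and Hspb6. Hspa12b was called in both comparisons under every alternative. Hspb8 in control culture was lost without LT-HSC control sample 1 or 3 or ST-HSC control sample 2 or 3 and with the replicate block and the unassigned share together (adjusted p up to 0.115), and with NR the calls of Hspb8 and Hspb6 were lost in 13 and 12 of 23 alternatives. With NR, 8 of the 23 alternatives also called 1 to 5 genes lower in LT-HSCs, among them Dnajc2 in 7 (log2 difference -0.31 to -0.20 over all alternatives) and Tcp1 in 3 (-0.24 to -0.096).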

How the data were processed

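The deposited values were counts of reads per Ensembl gene, 1 column per library; 0 columns were not used. The submitters' processing notes name FastQC 0.11.2 for read checks, STAR 2.5.0b as aligner and HTSeq 0.6.1 as counter, while build, annotation release and strand setting are not given in the sources. Of 53465 genes, 53274 had a symbol in the gene name table. Reads assigned to no gene (8.69% to 28.5%) or to several (3.30% to 4.38%) stayed out of library sizes. No 2 libraries of a group were duplicates (chi-square per degree of freedom 5.46 to 32.3).

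edgeR 4.0.16 (TMM factors, filterByExpr with a minimum count of 10 and total of 15, quasi-likelihood fit on 12 samples and 4 group means, two-sided) tested 19830 genes; adjustment was Benjamini-Hochberg over these (biological coefficient of variation 0.402, 8 residual degrees of freedom). The script was tested on simulated data. Changes are given ± SE, levels ± SD. Alternatives were RLE and upper-quartile factors, DESeq2 1.42.0, limma 3.58.1 (voom with quality weights), no filter, a filter at 5 CPM, the groups of a comparison alone, a replicate block, the share of unassigned reads as covariate, both of these together, and each library left out.

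The members and all gene lists were chosen with earlier results of these data known. Besides the members, genes were named by rule: of the other cytosolic chaperone genes, the 8 smallest p in the averaged NR comparison with at least 5 CPM and NR and control libraries apart in both cell types, the 4 smallest p called between cell types, and 3 genes nearest in profile to Hspa1b and to Hsph1. Other chaperone genes were named after their values were seen. Same-numbered samples deviated together in LT-HSCs with NR and control (correlations 0.49, 0.28 and 0.48 over genes). They also did in LT-HSCs and ST-HSCs with NR (0.54, 0.29 and 0.55). The labels do not state a pairing, and the main test used none. The replicate block applied the numbers to all 12 libraries. Reads in no annotated gene also rose with the number in NR-treated LT-HSCs (9.41%, 11.3% and 28.5%) and ST-HSCs (9.17%, 13.0% and 26.2%). Their part in these correlations was not tested. In ST-HSCs with NR and control the same-number correlations were weaker (0.21, 0.0057 and 0.24, against -0.28 to 0.073 for unlike numbers). Between control cultures they (0.0059, 0.045 and 0.10) lay within the range for unlike numbers (-0.22 to 0.16). Of the HSC markers, 1 is not reported here and was left out of their summed level. Promoter windows were RefSeq's. Intervals are 95% confidence intervals of a difference between groups, and they weigh only the spread of these samples within a group.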

Additional observations from a re-analysis of the deposited data

How the results depend on the processing

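Of 1082 values of single members under the alternatives, 996 kept their direction and their side of the threshold or were not called in either, 70 lost a call and 16 gained one; none that was called changed sign. Called members with NR in LT-HSCs numbered 3 (1 without a filter, 1 without sample 3 of both NR groups, 1 to 3 with each library left out), in ST-HSCs 3 (1 with RLE factors, 1 without a filter, 0 to 4 with each library left out, with 0 without ST-HSC NR sample 3) and averaged 5 (3 with RLE factors, 2 without a filter, 3 without sample 3 of both NR groups, 3 to 5 with each library left out). DESeq2 averaged called 6, with Hspa1b (adjusted p = 0.0462) and Dnajb1 (0.0369) higher and 4 lower. Between cell types with NR the count of 0 became 1 with upper-quartile factors, 2 with DESeq2 and 1 each with the stricter filter, with the unassigned share as covariate and with the block and covariate together, and stayed 0 to 0 with each library left out. Other chaperone genes called there, 3, became 6 with RLE factors, 7 with upper-quartile factors, 7 with DESeq2, 1 with limma-voom, 8 with the stricter filter, 1 with the 2 groups alone, 6 with the covariate, 1 without sample 3 of both NR groups, 6 with block and covariate, and 1 to 4 with each library left out; of these, 3, 4, 4, 0, 5, 0, 3, 0 and 4 were lower in LT-HSCs, against 0 of 3; in control culture they were 1 to 2. Other chaperone genes called in ST-HSCs, 21, were 12 to 22 with each library left out, the lowest without ST-HSC NR sample 3. The replicate block gave 3, 3 and 5 called members (LT-HSCs, ST-HSCs, averaged) and 0 between cell types; it changed no count by over 1.5 times. Scaling moved the balance of calls over all genes: with RLE factors 37.4% of LT-HSC calls, 51.7% of ST-HSC calls and 48.5% of averaged calls were higher, against 23.9%, 34.5% and 32.9% with TMM. The median averaged log2 change over all genes, 0.027, became 0.30 without a filter, -0.11 with limma-voom, -0.092 with the covariate and -0.077 without sample 3 of both NR groups. The cause of these shifts was not tested. Depth limits Hspa1a, Hspa1b and Hspb1.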

Other observations

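Chaperones of other compartments were also lower with NR on average: 11 of 14 endoplasmic reticulum chaperone genes and 7 of 7 mitochondrial ones were called lower and 0 higher, where 16.1% of all genes and 42.6% of those with at least 100 CPM were lower, in lists chosen with earlier results known.

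The genes nearest to Hsph1 in profile over the 12 libraries, among 10468 genes with at least 5 CPM, were Wdr75, Rtcb and Stk16, whose centred log2 CPM differed from that of Hsph1 by a root mean square of 0.051, 0.053 and 0.055, against a median of 0.19 over all these genes. For Hspa1b they were Dvl1 (0.19), 9530018F02Rik (0.25) and Zfp429 (0.26), against a median of 0.53. All libraries share their NR and cell type labels and their depth, so likeness of profiles is a description.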
